A study of Danio rerio with 8 samples.

Results

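Nuclear receptors are transcription factors that bind small lipid-soluble ligands such as retinoids, thyroid hormone, steroids and fatty acids, and that regulate their target genes directly on DNA. Many of them act as heterodimers with a retinoid X receptor, others as homodimers or monomers, and several, the orphan receptors, have no established natural ligand. In the vertebrate retina, receptors of this family take part in photoreceptor fate and in the choice of cone opsin, and they connect hormones and vitamin A metabolism with gene expression. The receptors described here are those whose gene symbol in the annotated table of the series began with the stem of an NR family name, RXR, RAR, THR, PPAR, VDR, ESR or HNF4, or was *ar*. The Rev-erb, ROR and estrogen-related receptors, *nr2e3* and *thrb* were left out, as was the coactivator group *ppargc*. The rule took 34 of the 13325 genes in that table, which was itself drawn from 33737 counted gene IDs, and 33 of the 34 are receptors. The other gene, *thrap3b*, encodes a protein named for its association with the thyroid hormone receptor and is not a receptor.

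RNA-seq was performed on retinal cells of 4 zebrafish of the *xops:eGFP* line, in which a *Xenopus* rod opsin promoter drives eGFP in rod photoreceptors. The 2 retinas of each fish, which had been dark-adapted, were digested with papain and trypsin, and flow cytometry divided the suspended cells into GFP+ cells (rods) and GFP- cells (all other retinal cells that passed the sort), giving 8 libraries in 4 pairs. RNA was amplified before library construction, and all fish carried the transgene, so that no group lacked it. The sample titles carry the numbers 1, 2, 2_2 and 5_2, which name the fish here, and per-library values below follow this order. The authors describe the fish as adult and state that sex was part of the design. The age and sex of each fish and the meaning of the suffix _2 are not in the labels. The GFP- population is a mixture, so that a transcript confined to a rare cell type and one present at a low level in all of them can give the same value. In such bulk samples a lower level cannot be told apart from fewer cells of the type that makes the transcript.

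Gene counts ranged from 1722055 to 2206479 per GFP+ library and from 1865121 to 2514874 per GFP- library. Levels are given as CPM, read counts relative to the library size, after scaling by TMM factors (trimmed mean of M values), which lay between 0.52 and 1.55, and on this scale 3 counts, taken as the most that a zero allows, correspond to 0.99 to 2.14 CPM in GFP+ libraries and 0.95 to 3.13 CPM in GFP- libraries. These limits cover counting error only. All 14 rod markers tested were enriched in GFP+ cells (median log2 fold change 2.95), and 17 of 18 cone markers tested were depleted (median -2.53). Each population carried transcripts of the other. The summed rod markers lay between 3357 and 15907 CPM in GFP- libraries against 42662 to 76212 CPM in GFP+ libraries, and the summed cone markers between 6505 and 9823 CPM in GFP+ libraries against 28766 to 55285 CPM in GFP- libraries. The cone opsin *opn1mw1* was at 0 in all GFP+ libraries but had only 2, 0, 0 and 0 counts in GFP- libraries and was not tested. Mitochondrial transcripts took 12.4% to 39.3% of gene counts in GFP+ libraries and 25.0% to 66.1% in GFP- libraries.

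Most receptors had reads in all GFP+ libraries. They were drawn from the annotated table, so this share depends on how that table was selected, and the share over all its genes was not computed. Reads in GFP+ libraries can also come from other cells, since these libraries carried cone transcripts. Of the 33 receptors, 29 had counts above 0 in all 4 GFP+ libraries, and the 4 with a zero in at least 1 of them were *nr4a1*, *pparda*, *rarga* and *rxrgb*. Counts were low, and 22 of the 33 had a highest count under 100 in any library. The filter on low counts kept 30 receptors, and *nr2e1*, *nr4a2a* and *pparab* were not tested. Of the 30 tested, 6 receptors (20%) were depleted in rods at an FDR under 0.01 (edgeR quasi-likelihood test, fish as block, p-values adjusted after Benjamini and Hochberg), against 5.68% of all 12564 genes tested. These were *nr4a3*, *nr4a1*, *nr2f6b*, *nr2f2*, *rxraa* and *thrab*, and the same 6 were depleted when mitochondrial genes were removed. At the same threshold 0 receptors were enriched in rods, against 3.13% of all genes. At an unadjusted edgeR p under 0.05, 4 of the 30 were higher, against 1346 of the 12564 genes. DESeq2 called 1 of these 4, *pparaa*, at an FDR under 0.01. At an FDR under 0.05, 8 receptors were depleted, with *rxrga* and *thraa* added, against 9.57% of all genes, and *pparaa* was the 1 enriched receptor, against 5.6% of all genes. The median log2 fold change was -0.27 over the 30 receptors and -0.02 over all genes tested, with 12 receptors above 0 and 18 below. The GFP+ and GFP- libraries did not overlap for 7 of the 33 receptors, all 7 among the 30 tested, against 14.5% of all genes tested. Among the 7, *nr2f1b* was separated only by 1.65 against 1.58 CPM, and a zero in a GFP- library leaves its separation uncertain.

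**Figure D1:**
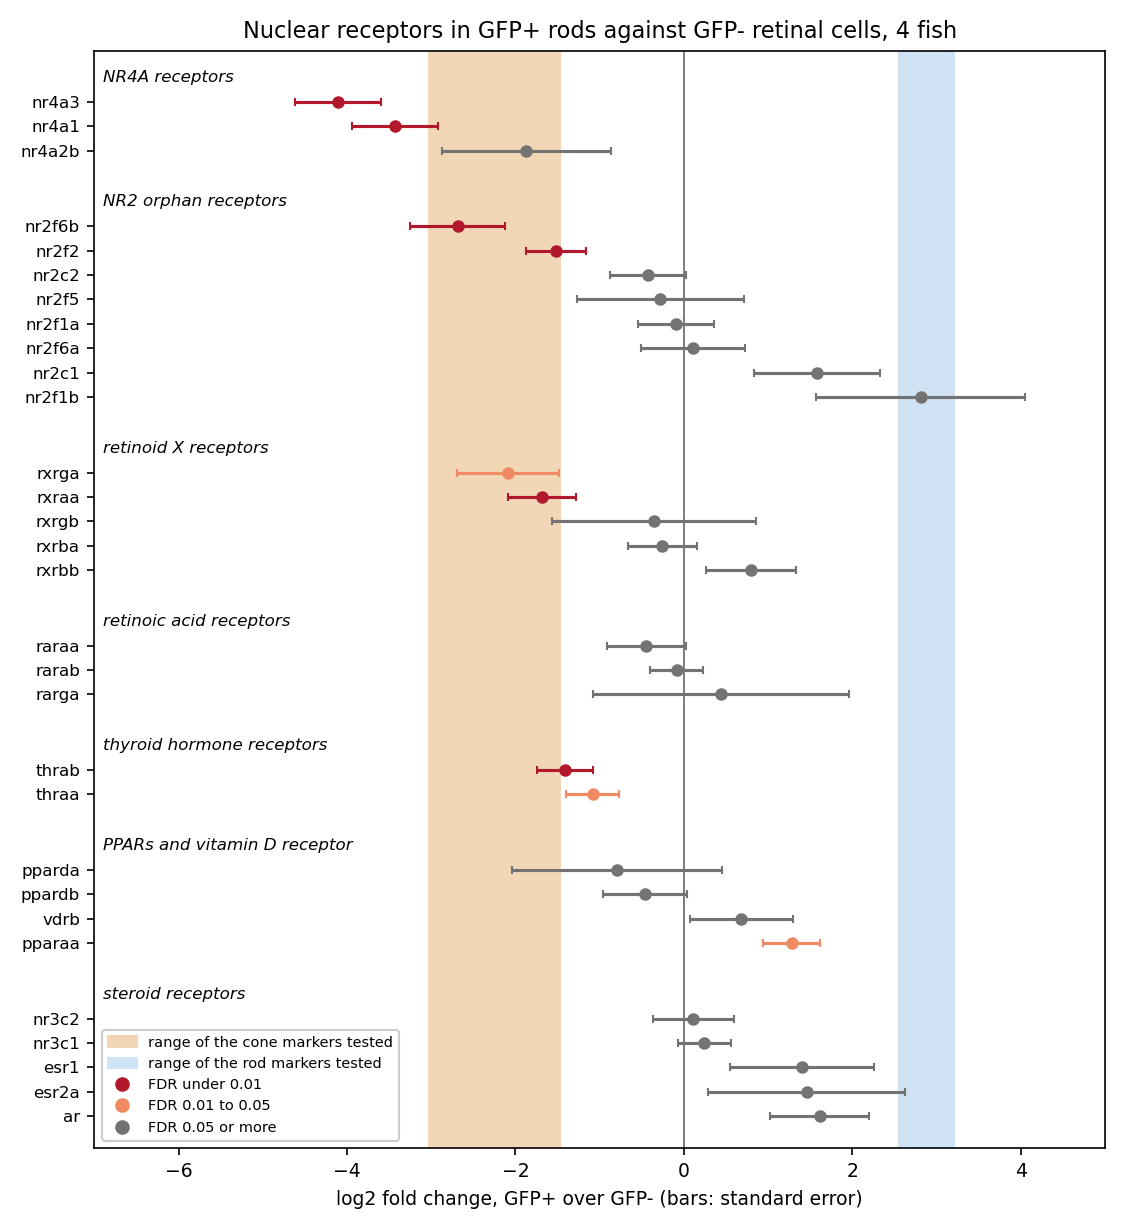
Log2 fold change of each tested receptor in GFP+ rods over GFP- retinal cells of 4 fish, grouped by receptor class, with bars for the standard error from the fitted model. The NR4A receptors *nr4a3* and *nr4a1* lie furthest to the left, at -4.11 and -3.43, and no receptor with an FDR under 0.05 other than *pparaa* lies to the right of 0; shaded bands give the range of the cone and rod markers tested.

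The NR4A receptors were the most strongly depleted class. They are orphan receptors whose transcripts are known as immediate early genes, rising within a short time of a stimulus such as calcium entry or a growth factor. The median log2 fold change of the 3 tested was -3.43, and 2 of the 3 passed the threshold, against 5.68% of all genes tested that were lower.

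*nr4a3* (NOR1 in mammals) lies on Zv9 chromosome 16, from 29573622 to 29597577. Its counts were 30, 5, 10 and 1 in GFP+ libraries and 221, 176, 71 and 118 in GFP- libraries. Every GFP- library was above every GFP+ library, and the GFP- levels were close to each other, at 72.0 CPM ± 3.83 (SD, n = 4) against 4.92 CPM ± 4.37 (SD, n = 4) in rods. The mean in rods was 14.7-fold lower (log2 fold change -4.11, SE 0.51, edgeR FDR 5.26e-06).

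*nr4a1* (Nur77 in mammals) lies on Zv9 chromosome 23, from 32389912 to 32401389. Its counts were 15, 54, 0 and 10 in GFP+ libraries and 167, 253, 63 and 80 in GFP- libraries. The groups did not overlap, although the GFP+ library of fish 2, at 23.3 CPM, stood above the other GFP+ libraries, which lay between 0 and 4.95 CPM. The zero in fish 2_2 allows up to 2.14 CPM. The means were 8.21 CPM ± 10.3 (SD, n = 4) in rods and 67.0 CPM ± 21.6 (SD, n = 4) in GFP- cells (log2 fold change -3.43, SE 0.52, edgeR FDR 5.4e-05). *nr4a3* and *nr4a1* were the only receptors that stayed under an FDR of 0.01 with each fish left out in turn, with log2 fold changes from -4.79 to -3.56 for *nr4a3* and from -4.11 to -2.88 for *nr4a1*.

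The duplicated relatives of mammalian NURR1 had few counts. *nr4a2b* had 2, 2, 7 and 4 counts in rods and 34, 6, 5 and 13 in GFP- cells. On the scaled values rods were lower in all 4 fish, but nearly equal in fish 2_2 (5.00 against 5.21 CPM), where rods were higher without TMM factors. The difference did not pass the test (log2 fold change -1.87, SE 1.00, edgeR FDR 0.248). *nr4a2a* had 5, 3, 15 and 3 counts in GFP+ libraries and 9, 8, 2 and 4 in GFP- libraries, was not tested, and had its highest level in rods of fish 2_2, where it reached 10.7 CPM.

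Other immediate early genes were depleted in rods as well. Of 14 tested, 9 were lower (against 5.68% of all genes tested) and 0 higher (against 3.13%) at an FDR under 0.01. Their median log2 fold change was -1.93. The transcription factors *egr3* (-4.60, edgeR FDR 6.7e-06), *egr1* (-1.84, edgeR FDR 2.37e-05), *fosl2* (-2.01, edgeR FDR 7.9e-05) and *fosl1a* (-2.48, edgeR FDR 0.000102) had the smallest p-values of the list. The 1 tested gene of the list above 0 was *dusp1*, a phosphatase of MAP kinases, at 0.17.

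Markers of several other cell types moved in the same direction as the NR4A receptors. All 9 microglia and macrophage markers tested were depleted (median log2 fold change -4.67), their summed level was 37.9 to 221 CPM in GFP+ libraries and 1603 to 4061 CPM in GFP- libraries, and *mpeg1*, a defining marker of macrophages in zebrafish, was at 0 in all GFP+ libraries. Of the 30 receptors tested, 3 lay at or under the median cone marker, and 7 at or under the highest one. Markers of bipolar cells (3 of 9 lower, median -1.24), amacrine and horizontal cells (2 of 9, median -1.17) and ganglion cells (2 of 6, median -1.22) were also lower in part, whereas 0 of 8 Müller glia markers passed the threshold (median -0.75). Of 5 erythrocyte markers 4 were lower, and of 3 pigment epithelium markers 0 passed. Among all genes tested, 5.68% were lower at this threshold. The part of each cell type in the receptor values was not tested.

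**Figure D2:**
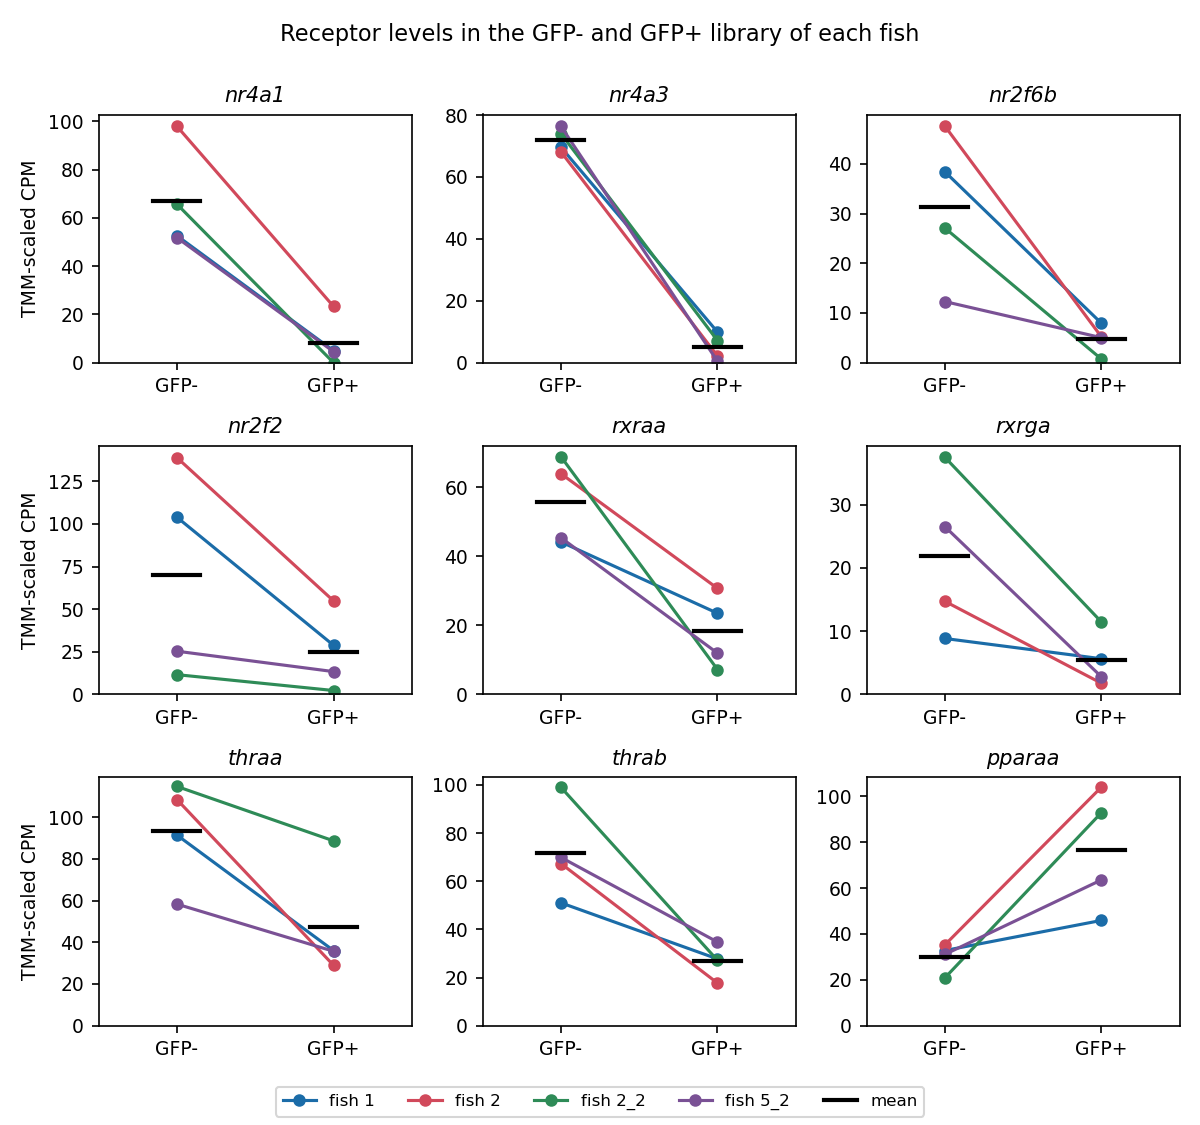
TMM-scaled CPM of 9 receptors in the GFP- and the GFP+ library of each fish, joined by a line per fish, with black bars for the mean of 4 libraries. The lines of *nr4a1* and *nr4a3* fall in all 4 fish to means of 8.21 and 4.92 CPM, those of *pparaa* rise in all 4, and *nr2f2* is high in fish 1 and 2 and low in fish 2_2 and 5_2 in both populations.

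The NR2 receptors were divided. They comprise the COUP-TF group (*nr2f1a*, *nr2f1b*, *nr2f2*, *nr2f5* and, more distantly, *nr2f6a* and *nr2f6b*), the testicular receptors (*nr2c1* and *nr2c2*) and the tailless relative *nr2e1*, which maintains neural stem cells in mice. COUP-TFs repress or activate transcription without a known natural ligand, and in the mouse retina they take part in the dorsoventral pattern of cone opsins. Of 8 tested, 2 were depleted in rods (against 5.68% of all genes tested) and 0 enriched (against 3.13%) at an FDR under 0.01. Their median log2 fold change was -0.18.

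*nr2f6b*, a duplicate of mammalian EAR2, lies on Zv9 chromosome 11, from 6150231 to 6168142. Its counts were 24, 12, 1 and 11 in GFP+ libraries and 122, 123, 26 and 19 in GFP- libraries. All GFP- levels (12.3 to 47.6 CPM) were above all GFP+ levels (0.71 to 7.92 CPM), and the mean in rods was 6.66-fold lower (4.71 CPM ± 2.98 against 31.4 CPM ± 15.2, SD, n = 4). The log2 fold change was -2.69 (SE 0.56, edgeR FDR 0.00173). Without fish 1 the log2 fold change was -2.91 with an FDR of 0.0222 and without fish 2 it was -2.51 with an FDR of 0.0287, in fits that called 329 and 385 genes lower against 714 with all fish.

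*nr2f2* encodes COUP-TFII and lies on Zv9 chromosome 18, from 23652345 to 23806708. Its counts were 87, 127, 3 and 29 in GFP+ libraries and 330, 359, 11 and 39 in GFP- libraries. The populations overlapped between fish but not within them: fish 1 and 2 were high and fish 2_2 and 5_2 low in both populations, and rods were lower in each of the 4 fish, at log2 ratios of (CPM + 1) between -1.99 and -0.88. Its means were 24.7 CPM ± 22.8 (SD, n = 4) in rods and 69.9 CPM ± 61.5 (SD, n = 4) in GFP- cells (log2 fold change -1.52, SE 0.35, edgeR FDR 0.00427). The FDR rose to 0.0654 without fish 1, 0.0418 without fish 2 and 0.0104 without fish 5_2, at log2 fold changes between -1.69 and -1.40. A gene on the opposite strand, *si:ch211-208h1.1*, overlaps it from 23661319 to 23672737. Unless the libraries kept the strand and the reads were counted by it, those of the 2 genes cannot be told apart there.

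*nr2f1b* had the highest log2 fold change of the tested receptors, with very few counts. It had 5, 19, 6 and 19 counts in GFP+ libraries and 5, 1, 0 and 1 in GFP- libraries. Rods were higher in all 4 fish and the groups did not overlap, but fish 1 was nearly equal in both populations (1.65 and 1.58 CPM). The GFP- zero in fish 2_2 allows up to 3.13 CPM, above the level in rods of fish 1, so that the lack of overlap is not certain. The log2 fold change was 2.81 (SE 1.24, edgeR FDR 0.144). *nr2c1*, the TR2 testicular receptor, was also higher in rods in all 4 fish, with 34, 30, 4 and 35 counts against 8, 18, 0 and 11, and did not pass the test either (log2 fold change 1.58, SE 0.75, edgeR FDR 0.179). Its GFP- zero in fish 2_2 allows up to 3.13 CPM, above the 2.86 CPM in rods of that fish. The 4 other tested members, *nr2c2*, *nr2f5*, *nr2f1a* and *nr2f6a*, had log2 fold changes between -0.43 and 0.11 and FDRs between 0.612 and 0.941. *nr2e1* had 17, 6, 2 and 8 counts in rods and 3, 8, 2 and 9 in GFP- cells and was not tested.

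The retinoid X receptors differed among themselves. They bind 9-cis retinoids and other fatty ligands and serve as the common heterodimer partner of the retinoic acid, thyroid hormone, vitamin D and PPAR receptors. Of 5 tested, 1 was depleted in rods at an FDR under 0.01 and a further 1 under 0.05. Among all genes tested, 5.68% and 9.57% were lower at these thresholds, and 5 receptors are too few to compare with these shares. The median of the class was -0.35 on the log2 scale. *rxraa* lies on Zv9 chromosome 21, from 16279759 to 16459148. Its counts were 71, 71, 10 and 26 in rods and 140, 165, 66 and 70 in GFP- cells. Both ranges, 7.15 to 30.7 CPM in rods and 44.1 to 68.8 CPM in GFP- cells, were clear of each other, and the mean in rods was 3.04-fold lower (log2 fold change -1.68, SE 0.41, edgeR FDR 0.00545). With any 1 fish left out, the FDR of *rxraa* lay between 0.0150 and 0.0476, above the threshold in all 4 cases, at log2 fold changes between -2.003 and -1.24.

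*rxrga*, an ortholog of RXR gamma, which marks cones in the mouse retina, had 17, 4, 16 and 6 counts in rods and 28, 38, 36 and 41 in GFP- cells. Rods were lower in all 4 fish, by little in fish 1 (5.61 against 8.82 CPM) and more in the others, and the ranges overlapped. The mean was 5.38 CPM ± 4.36 (SD, n = 4) in rods and 21.9 CPM ± 12.8 (SD, n = 4) in GFP- cells (log2 fold change -2.09, SE 0.61, edgeR FDR 0.0205). Without 1 fish its FDR ranged from 0.0215 to 0.160.

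The other retinoid X receptors did not pass the test. *rxrbb* had 52, 66, 21 and 17 counts in rods and 38, 34, 5 and 11 in GFP- cells, higher in rods in all 4 fish on the CPM scale (log2 fold change 0.80, SE 0.54, edgeR FDR 0.378). *rxrba* had 130, 64, 24 and 30 counts against 136, 54, 18 and 55 (log2 fold change -0.26, SE 0.41, edgeR FDR 0.762). *rxrgb* had 11, 0, 14 and 7 counts against 3, 15, 2 and 16, with rods higher in 2 fish and lower in the other 2 (log2 fold change -0.35, SE 1.21, edgeR FDR 0.901). The gene *atf6* overlaps *rxrgb* on the opposite strand of Zv9 chromosome 20, from 33899864 to 33934480, so that the counts of *rxrgb* may include its reads.

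The retinoic acid receptors, which are activated by all-trans retinoic acid, showed no difference that passed the test, and their log2 fold changes lay between -0.44 and 0.45. *rarab* was well detected in both populations, with 192, 148, 61 and 93 counts in rods and 168, 177, 74 and 54 in GFP- cells, at 53.3 CPM ± 11.9 (SD, n = 4) and 58.4 CPM ± 18.6 (SD, n = 4). Its log2 fold change was -0.09 (SE 0.31, edgeR FDR 0.907). *raraa* had 64, 43, 17 and 45 counts in rods and 59, 94, 40 and 19 in GFP- cells, with rods lower in fish 2 and 2_2 and higher in fish 1 and 5_2 (log2 fold change -0.44, SE 0.47, edgeR FDR 0.619). *rarga* had 14, 0, 11 and 1 counts against 11, 10, 0 and 0, too few to place it in either population (log2 fold change 0.45, SE 1.52, edgeR FDR 0.900). Of 10 tested genes that make, carry or break down retinoids, 0 passed an FDR of 0.01 in either direction (median log2 fold change -0.62). The smallest p-values of that list belonged to the carrier *rbp1a* (-2.63, edgeR FDR 0.0506) and the retinol transporter *stra6* (-2.75, edgeR FDR 0.137). For *rbp1a* rods were higher in fish 2_2 (25.7 against 14.6 CPM) and lower in the other fish.

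Both thyroid hormone receptors of the alpha type were lower in rods in all 4 fish on the scaled values, with *thraa* of fish 2_2 higher in rods without TMM factors. These receptors bind triiodothyronine, and in zebrafish the alpha receptor is present as the duplicates *thraa* and *thrab*. *thrab* lies on Zv9 chromosome 12, from 23154548 to 23394768. Its counts were 84, 41, 38 and 76 in rods and 162, 174, 95 and 108 in GFP- cells. GFP- levels (51.0 to 99.0 CPM) were all above those of rods (17.7 to 34.8 CPM), and the mean in rods was 2.68-fold lower (log2 fold change -1.41, SE 0.33, edgeR FDR 0.00465). Without 1 fish the FDR of *thrab* lay between 0.0156 and 0.0465, again above the threshold whichever fish was left out, at log2 fold changes between -1.61 and -1.23.

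*thraa* lies on Zv9 chromosome 3, from 34773318 to 34838901. Its counts were 109, 67, 124 and 78 in rods and 290, 280, 110 and 90 in GFP- cells. The level in rods of fish 2_2, 88.6 CPM, stood above the other 3 GFP+ libraries (28.9 to 36.0 CPM) and reached into the range of the GFP- libraries (58.3 to 115 CPM). The log2 fold change was -1.08 (SE 0.31, edgeR FDR 0.0200), and it was between -1.30 and -0.81 without 1 fish. Transcripts that supply the hormone to cells were few: 4 were tested, among them the deiodinases *dio2* and *dio3b*, and 0 passed the threshold (median log2 fold change -0.56). *thrap3b*, the member of the rule that is not a receptor, had a log2 fold change of -0.15 (SE 0.37, edgeR FDR 0.850).

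*pparaa* was the only receptor higher in rods at an FDR under 0.05. PPAR alpha binds fatty acids and activates genes of their oxidation. The gene lies on Zv9 chromosome 4, from 17677723 to 17703189, and its counts were 139, 241, 130 and 139 in rods and 104, 91, 20 and 48 in GFP- cells. Levels in rods (45.9 to 104 CPM) were all above those in GFP- cells (20.9 to 35.2 CPM), with the smallest gap in fish 1. The means were 76.6 CPM ± 26.7 (SD, n = 4) and 30.0 CPM ± 6.32 (SD, n = 4), a 2.55-fold difference (log2 fold change 1.28, SE 0.34, edgeR FDR 0.0106). Its FDR was 0.0179 to 0.0829 without 1 fish. The duplicate *pparab* had 8, 20, 1 and 10 counts in rods and 4, 3, 0 and 7 in GFP- cells and was not tested. Rods were higher in all 4 fish on the CPM scale, but only marginally in fish 5_2 (4.57 against 4.53 CPM). In fish 2_2 the direction is not determined, since rods were at 0.71 CPM and the zero in GFP- cells allows up to 3.13 CPM.

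The PPAR delta duplicates and the vitamin D receptor did not pass the test. *pparda* had 0, 3, 19 and 7 counts in rods and 22, 16, 3 and 2 in GFP- cells, so that rods were lower in fish 1 and 2 and higher in fish 2_2 and 5_2 (log2 fold change -0.79, SE 1.25, edgeR FDR 0.757). *ppardb* had a log2 fold change of -0.46 (SE 0.50, edgeR FDR 0.624) and *vdrb* of 0.68 (SE 0.62, edgeR FDR 0.540). In an interaction of the rod effect with the suffix _2 of the fish labels, added after the data were seen, 21 of 12564 genes passed an FDR of 0.05 and 0 of the 30 receptors did. *pparda* had the smallest p among the receptors (edgeR p 0.0227, FDR 0.676). An unadjusted edgeR p under 0.05 was reached by 3 of the 30 receptors, and the share of all genes at that cut was not computed.

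The steroid receptors all had log2 fold changes above 0, and none passed the test. This class holds the receptors of glucocorticoids (*nr3c1*), mineralocorticoids (*nr3c2*), androgens (*ar*) and estrogens (*esr1* and *esr2a*). The median log2 fold change of the 5 was 1.40. *ar* had 85, 89, 24 and 27 counts in rods and 30, 15, 2 and 25 in GFP- cells. Rods were higher in fish 1, 2 and 2_2 and lower in fish 5_2 (12.3 against 16.2 CPM, but higher without TMM factors), and the log2 fold change was 1.61 (SE 0.59, edgeR FDR 0.0696). With 1 fish left out, the FDR of *ar* ranged from 0.0226 (without fish 5_2, whose pair went the other way) to 0.375. *esr1* (19, 23, 22 and 7 counts against 7, 11, 1 and 6) and *esr2a* (13, 12, 2 and 7 against 6, 4, 2 and 0) were each higher in rods in 3 of 4 fish on the scaled values and in 4 without TMM factors, with log2 fold changes of 1.40 (SE 0.86) and 1.46 (SE 1.17).

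*nr3c1* was detected in every library, with 249, 104, 103 and 124 counts in rods and 214, 154, 38 and 73 in GFP- cells. Its levels overlapped, at 64.3 CPM ± 16.7 (SD, n = 4) in rods and 53.5 CPM ± 12.4 (SD, n = 4) in GFP- cells (log2 fold change 0.25, SE 0.31, edgeR FDR 0.686). *nr3c2* had 70, 58, 13 and 28 counts against 57, 42, 8 and 33 (log2 fold change 0.11, SE 0.48, edgeR FDR 0.923). Of 7 tested genes for steroid metabolism and receptor chaperones, 0 passed an FDR of 0.01. The chaperone *hsp90ab1* had the smallest p of these (log2 fold change -0.996, edgeR FDR 0.0103) and *hsp90aa1.2* the next (0.87, edgeR FDR 0.0591).

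**Figure D3:**
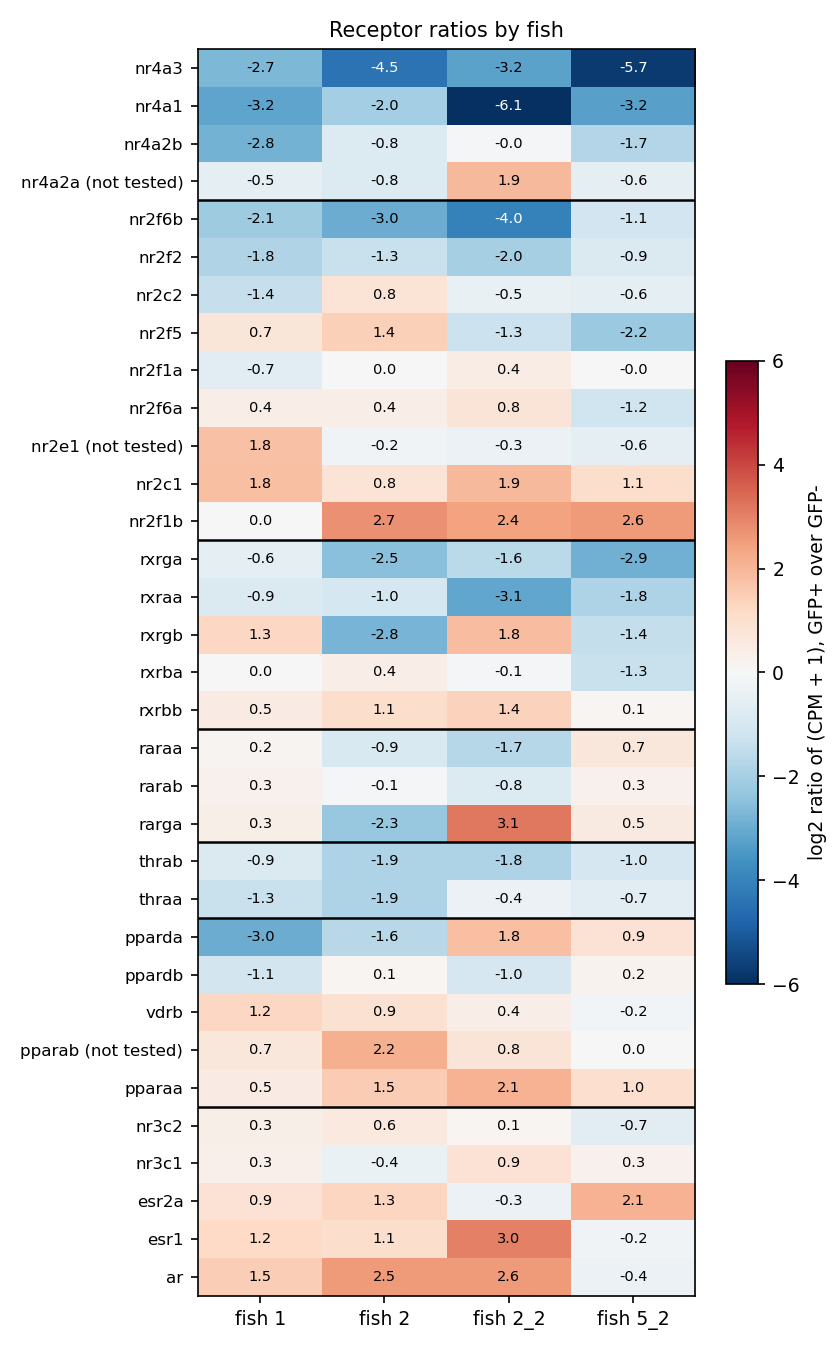
Log2 ratio of (CPM + 1) in GFP+ over GFP- cells for the 33 receptors in each of the 4 fish, ordered by class, with blue for lower and red for higher in rods. The ratio was below 0 in all 4 fish for 9 receptors (7 without TMM factors) and above 0 in all 4 for 5 (9 without TMM factors); several rows with few counts, such as *rarga*, *rxrgb* and *pparda*, change sign between fish.

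Within fish, 9 receptors were lower in rods in all 4 pairs (*nr4a1*, *nr4a2b*, *nr4a3*, *nr2f2*, *nr2f6b*, *rxraa*, *rxrga*, *thraa* and *thrab*) and 5 were higher in all 4 (*nr2c1*, *nr2f1b*, *pparaa*, *pparab* and *rxrbb*). The remaining 19 changed sign between fish. For *nr2c1* and *pparab* the value in fish 2_2 rests on a GFP- zero that allows up to 3.13 CPM, above their levels in rods. The share of all genes tested that kept 1 sign in all 4 fish was not computed. With counts divided by library size alone, an alternative added after the data were seen, 7 of the 9 remained lower in all 4 fish and the 5 remained higher. *nr4a2b* and *thraa* were then higher in rods in fish 2_2, and *ar*, *esr1*, *esr2a* and *vdrb* were also higher in all 4.

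Zebrafish carry many receptors as 2 copies from the genome duplication of teleosts, and 7 pairs had both copies tested. The difference between the log2 GFP+/GFP- ratios of the 2 copies had the same sign in all 4 fish in 2 pairs. The ratio of *nr2f1a* was below that of *nr2f1b* by a mean of -1.996 (SD 0.90, n = 4 fish, values from -2.69 to -0.73), and that of *rxrba* was below that of *rxrbb* by a mean of -1.02 (SD 0.51, n = 4 fish, values from -1.49 to -0.48). In both pairs the exact two-sided sign-flip permutation test gave p = 0.125, the smallest that 4 fish allow. In fish 2_2 the ratio of *nr2f1b* rests on a GFP- zero that allows up to 3.13 CPM. The sign of its difference from *nr2f1a* in that fish is therefore not determined, nor is the p-value of that pair. The mean for that pair was -2.47 with a pseudocount of 0.5 CPM and -0.93 with 5 CPM. The ratio of *nr2f6a* lay above that of *nr2f6b* in 3 fish (mean difference 2.67, SD 2.03) and that of *rxrga* below that of *rxrgb* in 3 fish (mean difference -1.62, SD 1.52). *raraa* and *rarab* (-0.35, SD 0.63), *thraa* and *thrab* (0.32, SD 0.82) and *pparda* and *ppardb* (-0.04, SD 2.24) differed by less than the SD between fish. How the authors' counting divided reads between similar copies was not tested.

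**Figure D4:**
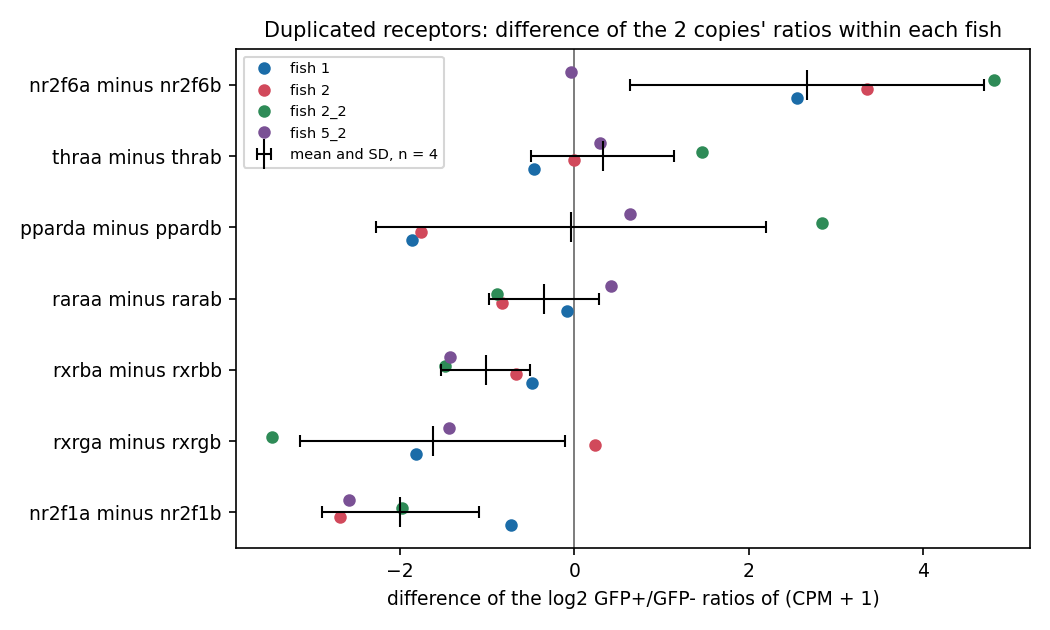
Difference of the log2 GFP+/GFP- ratios of (CPM + 1) between the 2 copies of 7 duplicated receptors, with a point per fish and bars for the mean and SD of 4 fish. All 4 points lie below 0 for *nr2f1a* minus *nr2f1b* and for *rxrba* minus *rxrbb*, and the points of *pparda* minus *ppardb* spread from -1.86 to 2.84. The *nr2f1b* ratio of fish 2_2 rests on a GFP- zero.

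Among the partners through which receptors act, no gene passed the main threshold. Of 17 coactivators tested, 0 passed an FDR of 0.01 (median log2 fold change 0.15), where 5.68% of all genes tested were lower and 3.13% higher. *ncoa1*, the steroid receptor coactivator SRC1, had the smallest p of the list, with 57.2 to 98.9 CPM in rods and 9.38 to 38.8 CPM in GFP- cells (log2 fold change 1.32, SE 0.35, edgeR FDR 0.0111). Of 12 corepressors tested 0 passed, with a median of 0.13, and *ncor1*, a platform corepressor of unliganded receptors, had a log2 fold change of 0.16.

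Genes known as receptor targets did not move in 1 direction. Of 18 tested, 2 were depleted (against 5.68% of all genes tested) and 0 enriched (against 3.13%) at an FDR under 0.01. These counts are too small to be read as a result about the list, whose median log2 fold change was -0.21. The depleted genes were the cholesterol exporter *abca1b*, a target of the oxysterol receptors (0.87 CPM ± 1.01 against 28.0 CPM ± 10.1, SD, n = 4, log2 fold change -4.97, edgeR FDR 5.17e-05), and the kinase *sgk1*, a target of glucocorticoid receptors (28.4 CPM ± 7.73 against 105 CPM ± 20.2, SD, n = 4, log2 fold change -1.91, edgeR FDR 0.00018). At an FDR under 0.05, *abca1a* (-1.21) and the lipid droplet gene *plin2* (-2.37) were lower, and the sterol exporter *abcg1* (1.04), the lipogenic regulator *srebf1* (1.00) and the clock gene *per1a* (0.84) were higher in rods. The retinoic acid target *cyp26a1* (0.04) and the glucocorticoid targets *fkbp5* (0.56) and *tsc22d3* (-0.22) did not pass.

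**Figure D5:**
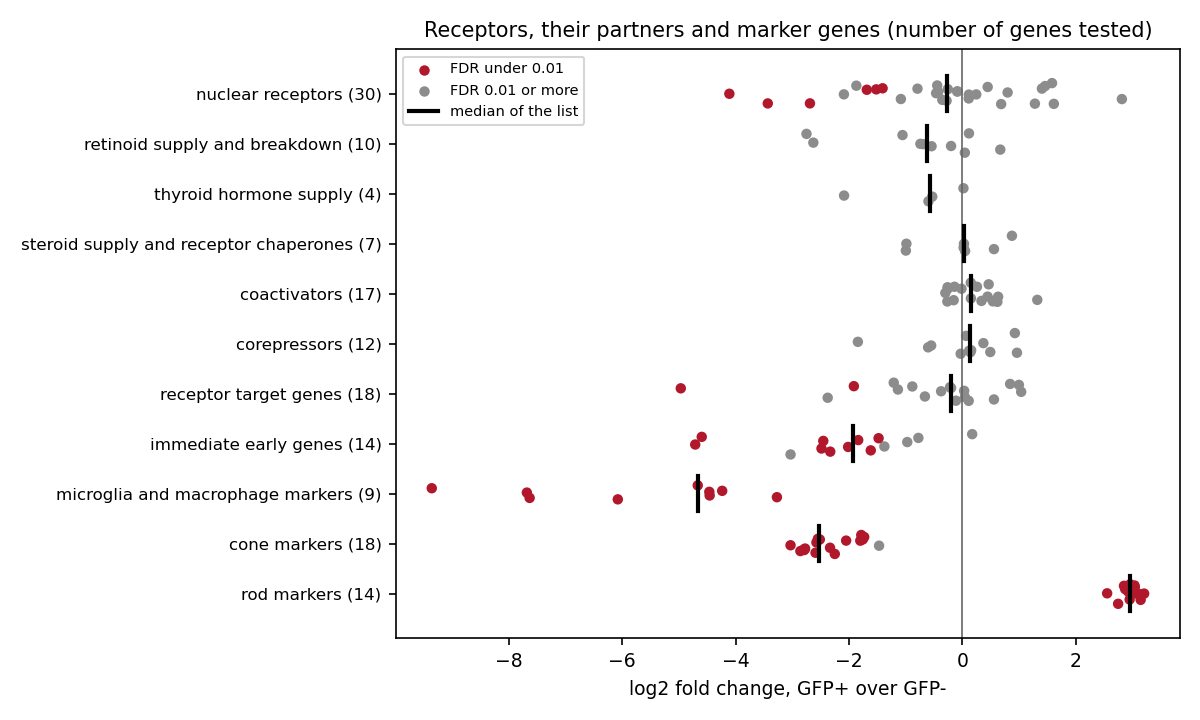
Log2 fold change in GFP+ over GFP- cells of the 30 tested receptors, of gene lists for their ligands, partners and targets, and of marker lists, with a point per gene, red for an FDR under 0.01, and a black bar for the median of each list. Coactivators and corepressors lie around 0 (medians 0.15 and 0.13), immediate early genes lie mostly below 0 (median -1.93), and the receptors spread from -4.11 to 2.81.

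Further receptor genes fell outside the rule or the annotated table. Of these, *pparg*, the PPAR of adipocytes and macrophages, had 2, 1, 0 and 1 counts in rods and 41, 18, 2 and 8 in GFP- cells (log2 fold change -3.91, edgeR FDR 0.0210). *nr1i2*, the pregnane X receptor, was lower in rods in all 4 fish (4.44 CPM ± 3.38 against 17.2 CPM ± 6.83, SD, n = 4, log2 fold change -2.09, edgeR FDR 0.0329), and *nr1h3*, the liver X receptor, had a log2 fold change of -0.35. The entry named *VDR (1 of 2)*, a second vitamin D receptor, had 14, 18, 6 and 9 counts against 2, 8, 3 and 0 (log2 fold change 1.97, edgeR FDR 0.261). *HNF4A*, a receptor best known from liver, had 2, 11, 14 and 8 counts against 0, 2, 1 and 2 (log2 fold change 2.49, edgeR FDR 0.187). *nr5a5* had 4, 0, 5 and 2 counts against 4, 3, 0 and 0 and was not tested. A further retinoid X receptor entry, *RXRA*, had 3, 0, 0 and 0 counts against 0, 11, 0 and 5. A further retinoic acid receptor entry, *RARG*, had 13, 0, 0 and 0 against 4, 5, 0 and 0. Neither was tested.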

How the data were processed

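Counts were made by the authors: reads were trimmed with Sickle, pairs overlapped with FLASH, aligned to Zv9 with BWA, sorted with SAMtools and counted per Ensembl gene with HTSeq-count, without normalization (tool versions and strand settings are not given in the sources used here). HTSeq's counters of unassigned reads, 48.2% ± 6.30 (SD, n = 4) of GFP+ and 37.5% ± 3.22 (SD, n = 4) of GFP- totals, were kept out. A deposited table of the authors' comparison supplied symbols and Zv9 coordinates. Its normalized signal per library, which the authors deposited beside the counts, and its log2 fold changes, mean log2 CPM, likelihood ratios, p-values and FDRs were not used.

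Counts were fitted in R 4.3.3 with edgeR 4.0.16 (TMM, filterByExpr, trended dispersion, quasi-likelihood F test, fish as a block, Benjamini-Hochberg over 12564 genes). The steps were tested on simulated counts without differences between fish, with changes only in genes whose mean level was above the median. That test therefore does not cover receptors with few counts. DESeq2 1.42.0, RLE factors, no scaling, other filters, removal of mitochondrial genes, no block and each fish left out were alternatives. Summaries used pandas 2.3.3 with numpy 2.4.6 under Python 3.11.15, and plots matplotlib 3.10.9. The SE of a log2 fold change is its absolute value divided by the square root of the F statistic. It comes from the fitted model and not from the spread of the per-fish ratios. Per-fish ratios used a pseudocount of 1 CPM. The libraries were paired because the authors' methods state that paired GFP+ and GFP- cells came from the same fish. The shared numbers in the titles gave the pairs. Deviations from the population means correlated at 0.324, 0.294, 0.335 and 0.215 within fish, and at most at 0.206 between fish.

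The members and gene lists were chosen with earlier results of these data known. All 33 receptors that the rule took are named, but not every receptor gene outside it. Those with an FDR under 0.01 and the RXR, RAR and *thraa*/*thrab* symbols are given with counts and full statistics, and up to 4 genes with the smallest p per list are named, with further genes chosen after their values were seen. Levels are not compared between genes, since gene lengths were not used.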

Additional observations from a re-analysis of the deposited data

Results flagged for a closer look

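In 2 of 66 groups of 4 libraries, each a receptor in 1 population, 1 library stood far from the other 3 by Dixon's ratio. Chance does this in about 1 in 20 groups of 4 independent, normally distributed values. CPM of few counts need not be so distributed, and the groups share libraries, so that the rate here is not known. Both flagged values were in the GFP+ library of fish 2_2. The level of *nr4a2a* was 10.7 CPM there (15 counts) and 1.65, 1.29 and 1.37 CPM in fish 1, 2 and 5_2. The level of *thraa* was 88.6 CPM there (124 counts) and 36.0, 28.9 and 35.7 CPM in the other fish.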

How the results depend on the processing

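The 6 receptors depleted at an FDR under 0.01 kept their direction under all 72 alternatives run for them. Without the block for the fish, which ignores the pairing, 1 receptor was depleted (*nr4a3*, log2 fold change -3.86) and 0 were enriched. The count of depleted receptors was 3 without scaling factors and 2 to 4 with 1 fish left out (2 without fish 1, 2 without fish 2, 4 without fish 2_2 and 3 without fish 5_2), against 6. The count over all genes fell in these settings too. It was 714 in the main fit, 142 without the block and 372 without scaling factors. With fish 1, 2, 2_2 or 5_2 left out it was 329, 385, 569 and 351. Under the likelihood ratio test with trended dispersion the count of depleted receptors was 8. The test added *rxrga* (FDR 0.00376) and *thraa* (FDR 0.00793), and it called 1112 of all genes lower. The count of enriched receptors was 1, *pparaa*, instead of 0 under the likelihood ratio test, DESeq2, RLE factors, no scaling factors, no filter, a filter on CPM over 1 in 4 libraries, removal of mitochondrial genes and an FDR of 0.05, and 0 with any 1 fish left out. Without scaling factors the median of all genes moved from -0.02 to 0.32, so that values under this setting are relative to that shift.

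Signs turned only among genes that did not pass the test, in 18 of 348 alternatives for receptors and in 21 of 360 with *thrap3b* included. Without scaling factors the log2 fold change was 0.25 for *nr2f1a*, 0.037 for *nr2f5*, 0.27 for *rarab*, 0.089 for *rxrba*, 0.045 for *rxrgb* and 0.20 for *thrap3b*, and without the block it was 0.33 for *nr2f5*. With 1 fish left out, the lowest and highest values were -0.21 and 0.12 for *nr2f1a*, -1.19 and 0.57 for *nr2f5*, -0.094 and 0.59 for *nr2f6a*, -0.077 and 0.42 for *nr3c2*, -1.93 and 0.39 for *pparda*, -0.22 and 0.17 for *rarab*, -0.77 and 1.94 for *rarga*, -0.49 and 0.12 for *rxrba*, -1.27 and 0.73 for *rxrgb* and -0.41 and 0.071 for *thrap3b*. The difference of *pparda* and *ppardb* was 0.22 with a pseudocount of 5 CPM and -0.996 to 0.57 with 1 fish left out, and that of *thraa* and *thrab* was -0.056 without fish 2_2. The cause of these turns was not tested. Depth limits the receptors with few counts: 6 had under 20 counts in every library.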
